A study of Mus musculus with 8 samples.

Results

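The glucocorticoid receptor, encoded by Nr3c1, and a group of genes known as its targets or as stress-responsive genes were examined in mouse liver. The group was a list of 9 gene symbols, Nr3c1, Fkbp5, Tsc22d3, Sgk1, Dusp1, Klf9, Lcn13, Mt1 and Mt2, looked up in a table of 11784 genes. Of these 9, 8 were in the table. Lcn13, a lipocalin that the NCBI gene table now calls Obp2a, was not among the genes listed under either name, so no value is given for it. Livers came from male C57BL/6J mice switched at 9 weeks of age to amino acid defined diets, 4 mice fed the Control diet (TD.140711) and 4 fed the Low AA diet (TD.140712), which has fewer of its calories from amino acids and more from carbohydrate. All 8 mice had been on the diets for 4 months and were fasted overnight for about 16 hours before sacrifice, so a fed state was not analysed here. The labels name no allele or agent for either diet, and corticosterone, the glucocorticoid of mice, was not among the measurements analysed here.

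Glucocorticoids are released by the adrenal gland in stress and in fasting. In the hepatocyte they bind the receptor, which waits in the cytosol in a complex with heat shock proteins and immunophilins, moves to the nucleus and binds palindromic DNA sites near its targets. In the liver the receptor is known for inducing enzymes of gluconeogenesis and amino acid breakdown during a fast, and its targets include brakes on its own action. The metallothioneins are small zinc-binding proteins that respond to zinc, to glucocorticoids and to inflammation.

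The values are read counts that were scaled per mouse and rounded, called scaled read counts here. They summed to between 27876664 and 30799385 per mouse, and the median over genes lay between 433.0 and 449.0. All 10 hepatocyte markers were in the table, with sums of 2587264 to 2915131 in Control and 2744569 to 3005851 in Low AA mice, and 0 were called. Control mouse F2212 stood apart before any diet comparison, with 36587 for Cela1, a pancreatic elastase and the only 1 of 11 acinar pancreas markers in the table, against 130 to 288 in the other 7 mice, and with 57733 for Saa1, an acute-phase protein, against 68 to 2818. Where leaving this mouse out reversed a printed difference or moved it by over 1.5 times, the difference without it is given as well. Diets were compared on log2(value + 1) with limma over all 11784 genes, and differences are Low AA minus Control. A gene was called at a Benjamini-Hochberg adjusted p under 0.05, which 0.399% of all genes passed, 0.102% with a positive and 0.297% with a negative difference.

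None of the 8 genes was called in limma. At an unadjusted p under 0.05 there was 1 of the 8 (12.5%), against 11.8% of all genes, and 1 of the 8, the same gene, had values that did not overlap between the diets, against 6.81% of all genes (3.26% with the Low AA mice above and 3.55% with them below). That gene was Sgk1, higher in all 4 Low AA mice. The differences of the 8 genes had a median of 0.12 on the log2 scale, 7 positive and 1 negative. Over all genes the median was 0.00234, with 5955 positive and 5829 negative. The split of the 8 genes leaned on F2212. Without it, Fkbp5 (-0.12), Tsc22d3 (-0.18) and Klf9 (-0.12) turned negative and Mt2 (0.35) turned positive. In bulk liver RNA, fewer cells of a type and less RNA per cell cannot be told apart.

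**Figure D1:**
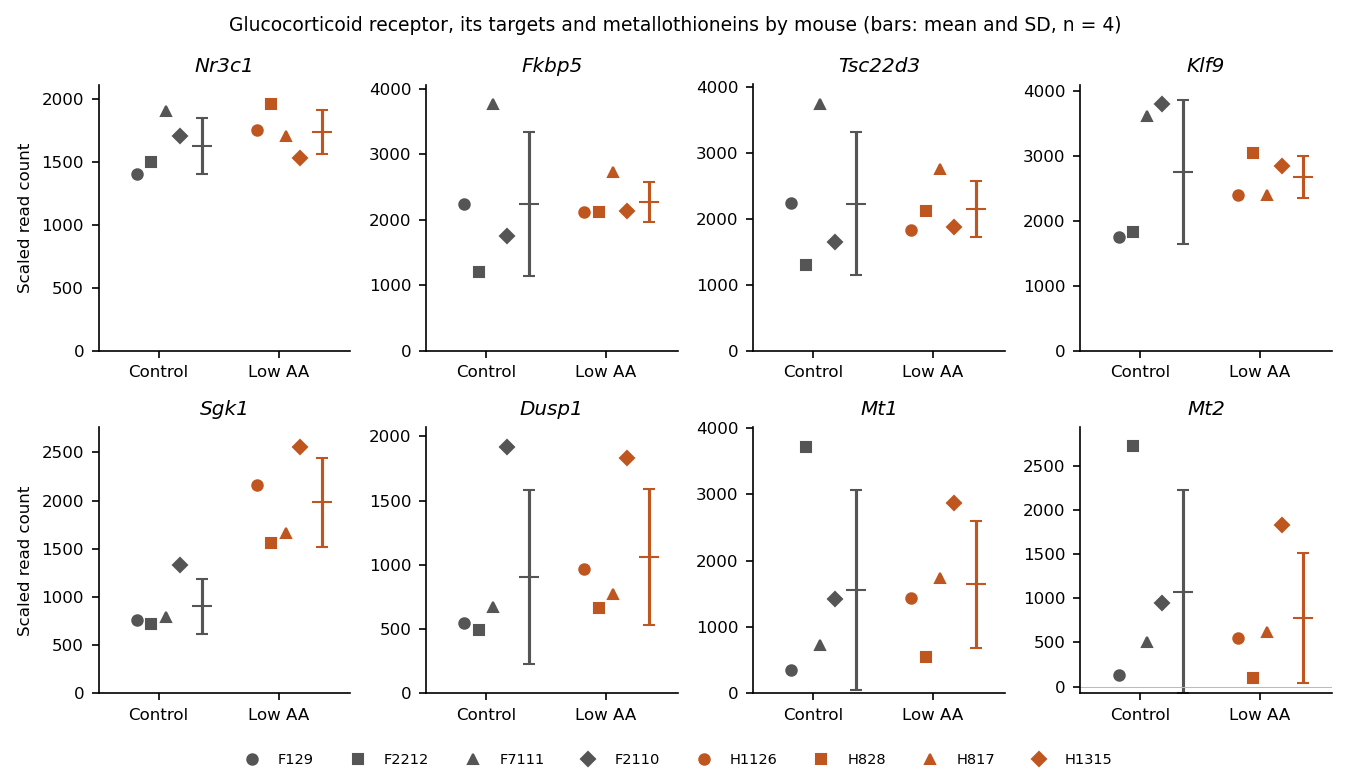
Scaled read counts of the 8 genes in each of the 8 mice, on a linear axis; each point is 1 mouse, with the mean and SD of the 4 mice of each diet beside the points, and the lower SD bar of Mt2 in Control mice runs below 0. The 4 Low AA mice lie between 1564 and 2557 for Sgk1, above the Control mice at 720 to 1330, while for the other 7 genes the diets overlap.

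The receptor itself was the steadiest of the group. Nr3c1, a nuclear receptor gene on chromosome 18, had 1406, 1495, 1907 and 1703 in Control mice F129, F2212, F7111 and F2110, and 1750, 1958, 1706 and 1530 in Low AA mice H1126, H828, H817 and H1315. The diets overlapped, and the highest and the lowest of the 8 values differed less than in any of the other 7 genes. Its mean was 1628 ± 224 (SD, n = 4) on the Control diet and 1736 ± 176 (SD, n = 4) on the Low AA diet, a difference of 0.10 (95% interval -0.17 to 0.37, limma adjusted p = 0.824). The interval corresponds to a fold between 0.888 and 1.29, and without F2212 the difference was 0.06. The spread of Nr3c1 within diets, an SD of 0.173 on the log2 scale, lay at the 33.6 percentile of all genes, below the median gene at 0.216. The genes most like it over the 8 mice were Atn1 and Wdfy3, with r = 0.986 and 0.985, again the highest of 11776 and so without a test.

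Of 19 further genes for glucocorticoid supply, receptor chaperones and steroid clearance, 18 were in the table and 0 were called. At an unadjusted p under 0.05 there were 1 higher and 1 lower, 11.1% of the list against 11.8% of all genes. The smallest p belonged to Hsd11b1, which encodes the enzyme that regenerates active corticosterone inside hepatocytes. It had 8508 to 10644 in Control mice and 11341 to 13990 in Low AA mice, with no overlap. The difference was 0.40 (limma adjusted p = 0.16). Srd5a1, a steroid reductase that inactivates glucocorticoids, had a mean of 2756 ± 816 (SD, n = 4) on the Control diet and 1986 ± 337 (SD, n = 4) on the Low AA diet, with a difference of -0.44 (limma adjusted p = 0.407), and the diets overlapped. Abcb1a, an efflux pump that exports glucocorticoids, had the largest size of difference on this list at 0.49 (limma adjusted p = 0.552), or 0.24 without F2212. Of 17 coregulators, 17 were in the table and 0 were called, 0 of them at an unadjusted p under 0.05, against 11.8% of all genes. Crebbp, a histone acetyltransferase that acts as a coactivator, and Nrip1, a corepressor, had differences of 0.55 and 0.69 (limma adjusted p = 0.534 and 0.567), and both were lowest in Control mouse F2212, without which the differences were 0.26 and 0.27.

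Fkbp5 and Tsc22d3 are among the most widely used readouts of receptor activity. Fkbp5 encodes an immunophilin that binds the receptor complex and restrains hormone binding, and Tsc22d3 encodes the glucocorticoid-induced leucine zipper, a mediator of anti-inflammatory action. Fkbp5, on chromosome 17 from 28399094 to 28517527 (GRCm38), had 2237, 1201, 3766 and 1758 in Control mice F129, F2212, F7111 and F2110, and 2112, 2117, 2732 and 2139 in Low AA mice H1126, H828, H817 and H1315. Control mice held both the highest and the lowest value. Tsc22d3, on chromosome X from 140539528 to 140600659, had 2240, 1290, 3732 and 1648 in the Control mice and 1829, 2114, 2748 and 1875 in the Low AA mice, in the same mouse order. Again F7111 was highest and F2212 lowest of the 8, and the Low AA values lay inside the Control range for both genes. The difference was 0.14 (95% interval -0.49 to 0.77, limma adjusted p = 0.9) for Fkbp5 and 0.04 (95% interval -0.59 to 0.67, limma adjusted p = 0.977) for Tsc22d3. Both signs rested on single mice, and without Control mouse F2212 the differences were -0.12 and -0.18. The highest Low AA value was 1.29 times the lowest for Fkbp5 and 1.5 times for Tsc22d3.

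From mouse to mouse, Fkbp5 and Tsc22d3 kept nearly the same value. The ratio of the scaled read count of Fkbp5 to that of Tsc22d3 lay between 0.931 and 1.15 in all 8 mice, while within the Control mice the highest value was 3.14 times the lowest for Fkbp5 and 2.89 times for Tsc22d3. Over the 8 mice, Pearson's r of the log2 values was 0.974 (exact permutation p = 0.000149, 0.00417 after Benjamini-Hochberg adjustment over 28 pairs of the group) and Spearman's rho was 0.976 (exact permutation p = 0.000397, adjusted 0.0111). Without the 2 mice farthest from the median of Fkbp5, r was 0.938. With each diet mean removed, r was 0.98 (exact permutation within diets, p = 0.00521, adjusted 0.0486), so the pair did not need the diet contrast. Among genes outside the group, the highest r with Fkbp5 over the 8 mice belonged to Dhx8 and Hp1bp3, at 0.952 and 0.948. For Tsc22d3 they were Zfp27 and Cand1, at 0.955 and 0.939. These were picked as the highest of 11776, so they carry no test, and all points share the same 8 libraries.

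**Figure D2:**
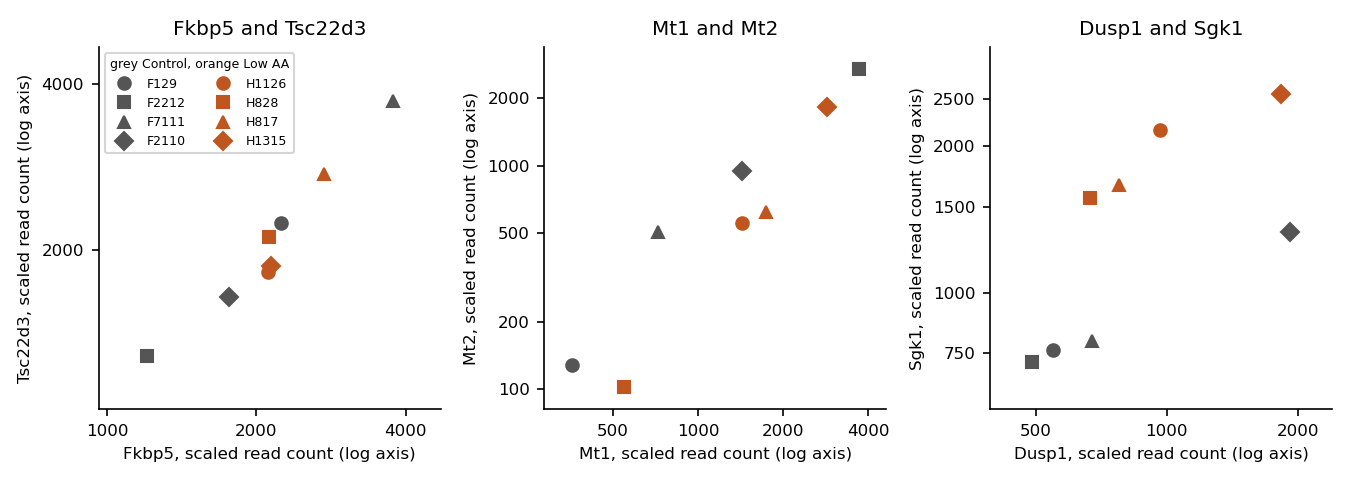
Scaled read counts of 3 gene pairs on log axes, 1 point per mouse, grey for Control and orange for Low AA. Fkbp5 and Tsc22d3 fall along 1 line with F2212 at the bottom and F7111 at the top, Mt1 and Mt2 are both lowest in F129 and H828 and highest in F2212, and Dusp1 and Sgk1 follow 1 line per diet, with the Low AA line higher.

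Klf9, a Krüppel-like transcription factor that the receptor induces and that also cycles with the clock, lies on chromosome 19 from 23141226 to 23168134. It had 1748, 1832, 3613 and 3790 in Control mice F129, F2212, F7111 and F2110, and 2394, 3038, 2393 and 2834 in Low AA mice H1126, H828, H817 and H1315. The Control mice formed a low and a high pair, and every Low AA value lay between them. The difference was 0.04 (95% interval -0.52 to 0.60, limma adjusted p = 0.971), and without F2212 it was -0.12. Klf9 did not follow Fkbp5 closely, with r = 0.418 over the 8 mice (exact permutation p = 0.31, adjusted 0.713) and rho = 0 (exact permutation p = 1.0), and without the 2 mice farthest from the median of Fkbp5 r was -0.61. Cpeb3 and Maml1, at r = 0.984 and 0.977 over the 8 mice, were the genes most like Klf9.

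Sgk1 encodes a serum- and glucocorticoid-regulated kinase that acts on ion channels, transporters and FOXO factors, and it is a classical direct target of the receptor. It lies on chromosome 10 from 21882184 to 21999903 and has 6 start sites among the RefSeq promoter windows. One of these windows, chr10:21993640-21993939 on the plus strand, holds an exact glucocorticoid response element, the hexamer AGAACA and its reverse complement TGTTCT with 3 free bases between them, at bases -189 to -175 before the start (chr10:21993701-21993715). The 250 bases before that start are shown because Sgk1 is the gene of this group that separates the diets, with the element in capitals (RefSeq, GRCm38.p6).
Sgk1: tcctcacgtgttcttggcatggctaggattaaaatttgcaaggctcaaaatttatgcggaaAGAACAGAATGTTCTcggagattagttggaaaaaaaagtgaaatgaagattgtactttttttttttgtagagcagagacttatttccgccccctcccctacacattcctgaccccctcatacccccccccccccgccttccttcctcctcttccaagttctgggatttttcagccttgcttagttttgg
Of 32851 RefSeq promoter windows of 300 bases, 3 hold this palindromic pattern, 0.00913% of them. None of the other 13 windows of the 7 genes of this group with RefSeq windows held it. Its hexamer AGAACA, which makes up each arm of the full element, was in 19.0% of all windows. Only exact matches inside these windows were searched, so sites elsewhere or with mismatches are not covered for any gene. A match is a description of the sequence, and occupancy of the element was not measured here.

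Sgk1 had scaled read counts of 762, 720, 796 and 1330 in Control mice F129, F2212, F7111 and F2110. In Low AA mice H1126, H828, H817 and H1315 it had 2159, 1564, 1660 and 2557. Every Low AA mouse was above every Control mouse. The mean was 902 ± 287 (SD, n = 4) on the Control diet and 1985 ± 462 (SD, n = 4) on the Low AA diet. The log2 difference was 1.16 (standard error 0.22, 95% interval 0.68 to 1.63), a fold of 2.23 with an interval of 1.6 to 3.1. The unadjusted p of 0.00029 ranked 56 among 11784 genes, and the limma adjusted p of 0.0611 missed the threshold. An exact permutation test on Sgk1 alone gave p = 0.0286 (two-sided, unadjusted), the smallest that 4 mice against 4 allow and the value that any gene without overlap gives. Control mouse F2110 was the nearest to the Low AA mice, and without it the log2 difference was 1.36 (limma adjusted p = 0.0168), so the call turned on that mouse. With any other mouse left out, the adjusted p stayed above the threshold, at up to 0.155.

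**Figure D3:**
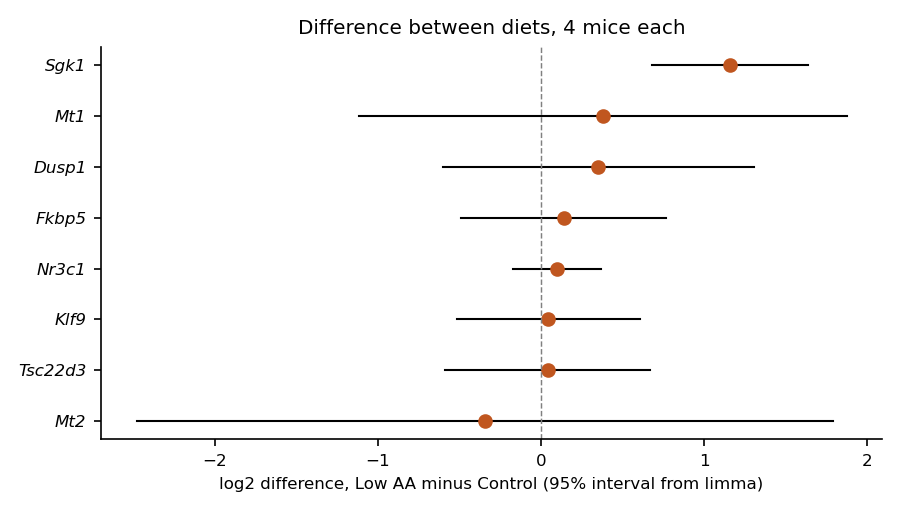
Log2 difference between diets for each of the 8 genes, Low AA minus Control, with its 95% interval from limma (4 mice per diet). The interval of Sgk1, 0.68 to 1.63, lies above 0, the intervals of the other 7 genes include 0, and those of Mt1 and Mt2 are the widest.

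Sgk1 is expressed in several liver cell types, so markers of other cells were set beside it. The summed scaled read counts of 10 markers of sinusoidal endothelium lay between 7577 and 10176 in Control mice and between 9010 and 9624 in Low AA mice. For 11 markers of Kupffer cells and macrophages the sums were 9960 to 15397 and 10954 to 15113. All 11 had a positive difference, with a median of 0.21 and 0 called. At an unadjusted p under 0.05 there was 1 of the 11, 9.09% against 11.8% of all genes. For 9 markers of stellate cells and fibroblasts they were 8100 to 10536 and 8358 to 10470, although Col1a1 and Col1a2, their collagen genes, had differences of -1.07 and -0.58 (limma adjusted p = 0.148 and 0.22). These 3 sums overlapped between diets. A sum mostly follows its most abundant markers, and Dcn alone gave 5133 to 6748 of the stellate cell and fibroblast sums. Sums for 4 cholangiocyte markers were 1124 to 2265 and 826 to 1316, and for 4 erythroid markers 7206 to 27464 and 9211 to 13541. In each list 2 of the 4 were lower at an unadjusted p under 0.05, 50% against 11.8% of all genes. The table held 2 of 7 lymphocyte markers (sums 246 to 449 and 291 to 422), 2 of 6 adipocyte markers (4235 to 6301 and 4930 to 6663) and 0 of 4 muscle markers. No marker in the table was listed at 0 in any mouse, and the part of these cells in the Sgk1 difference was not tested. Of its relatives, Sgk3, a kinase of the same family, had 217 to 330 in Control mice and 346 to 384 in Low AA mice, again with no overlap, a difference of 0.43 (limma adjusted p = 0.284).

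The gene with the pattern most like Sgk1 over the 8 mice was Cyp3a11, a steroid and drug hydroxylase, with r = 0.969 and rho = 0.976. Its own difference was 1.23 (limma adjusted p = 0.0395), a call kept in 1 of the 8 fits that left out a mouse, without F2110 (limma adjusted p = 0.0271), with adjusted p up to 0.106 in the others. Pigq came next, with r = 0.961. Both were chosen as the highest of 11776 genes and, like Sgk1, separate the diets, so these values describe a shared split of the same mice.

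Dusp1, a phosphatase that switches off MAP kinases and a mediator of glucocorticoid action, lies on chromosome 17 from 26505590 to 26562128. It had 548, 491, 674 and 1918 in Control mice F129, F2212, F7111 and F2110, and 967, 668, 777 and 1831 in Low AA mice H1126, H828, H817 and H1315. One mouse of each diet, F2110 and H1315, was far above its group, and the diets overlapped. The difference was 0.35 (95% interval -0.60 to 1.3, limma adjusted p = 0.82), without F2110 it was 0.79, without H1315 it was 0.05, and without F2212 it was 0.14. These were also the mice with the highest Sgk1 of each diet. With diet means removed, Dusp1 and Sgk1 had r = 0.977 over the 8 mice (exact permutation within diets, p = 0.00174, the smallest those permutations can give, adjusted 0.0243 over 28 pairs). Without the 2 mice farthest from the median of Dusp1 it was 0.888. With diet means kept in, r over the 8 mice was 0.679 (exact permutation p = 0.0703, adjusted 0.492). Spearman's rho was 0.714 (exact permutation p = 0.0576, adjusted 0.537). Neither passed, and Sgk1 forms separate clusters by diet. The genes most like Dusp1 over the 8 mice were Abcc4 and Gtf2e1, with r = 0.971 and 0.948. Within 4 mice, r of Dusp1 and Sgk1 was 0.997 on the Control diet and 0.947 on the Low AA diet, given as a description without a test.

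Dusp1 is also an immediate-early gene, induced within minutes by growth factors and stress. Of 34 immediate-early and MAP kinase feedback genes, 32 were in the table and 0 were called. At an unadjusted p under 0.05 there was 1, or 3.12% of the list against 11.8% of all genes. That gene was Dusp3, another MAP kinase phosphatase, with a difference of 0.37 (limma adjusted p = 0.277). Nr4a1, an orphan nuclear receptor of the immediate-early class, had 2802 in Control mouse F2110 and 66 to 225 in the other 7 mice, and Fos, an AP-1 subunit, had 189 there and 8 to 63 elsewhere. The mean of the 32 genes stood 0.69 above the 8-mouse mean in F2110 on the log2 scale and between -0.28 and 0.11 in the others. H1315, the other mouse with high Dusp1, was at 0.11 and had 225 for Nr4a1. Not every gene of the list was highest in F2110, and Egr1 had 835 there against 1406 in F129. F2110 thus combined the highest mean of the immediate-early list with the highest Dusp1 and the Sgk1 value nearest to the Low AA mice. The part of the one in the other was not tested. The promoter window of Dusp1 holds the cAMP response element TGACGTCA at bases -143 to -136 before the start, a motif found in 1.79% of all windows. The antioxidant response element core TGACNNNGC, found in 12.4% of all windows, was in the windows of Dusp1 and Mt2, and those of Fkbp5 and Klf9 held none of the motifs searched.

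**Figure D4:**
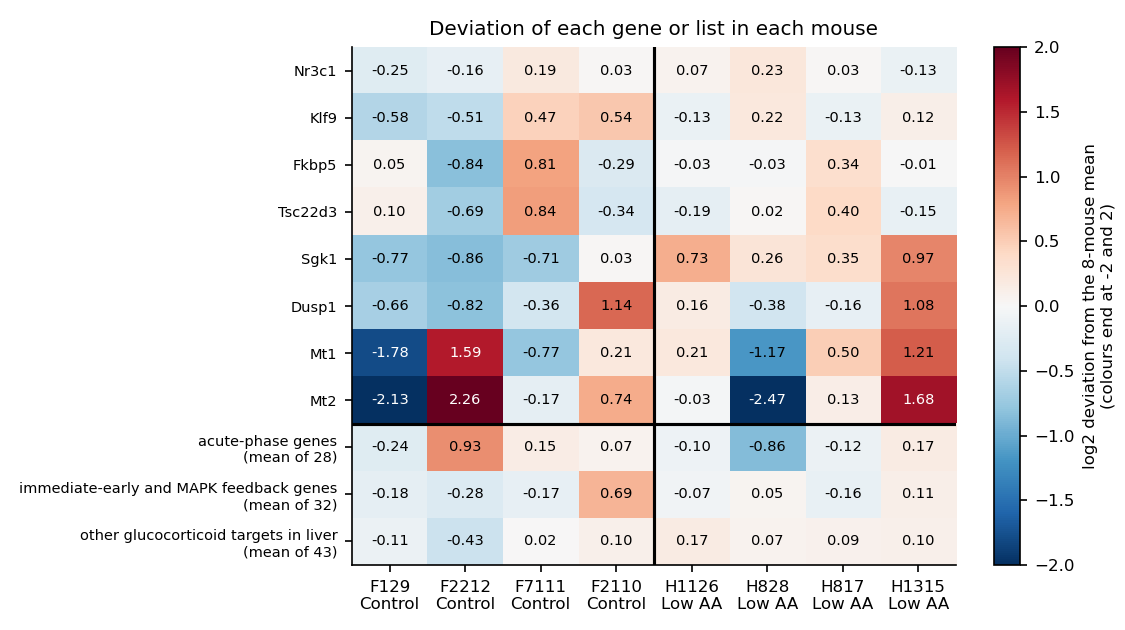
Log2 deviation of each gene from its mean over the 8 mice, in columns of Control and Low AA mice, with 3 lists below as the mean over their genes; numbers in the cells are the deviations and colours end at -2 and 2. Fkbp5 and Tsc22d3 are lowest and Mt1, Mt2 and the acute-phase mean highest in F2212, and the immediate-early mean is highest in F2110.

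Mt1 and Mt2 encode metallothioneins I and II, which buffer zinc and copper. They lie next to each other on chromosome 8 of GRCm38, Mt2 from 94172664 to 94173568 and Mt1 from 94179082 to 94180327, on the plus strand with 5513 bases between them. The 250 bases before each RefSeq start are printed because the pair moved together over the mice, with matches to the metal response element core, TGCACNC or TGCGCNC on either strand, in capitals (RefSeq, GRCm38.p6, chr8:94178839-94179088 for Mt1 and chr8:94172368-94172617 for Mt2, plus strand).
Mt1: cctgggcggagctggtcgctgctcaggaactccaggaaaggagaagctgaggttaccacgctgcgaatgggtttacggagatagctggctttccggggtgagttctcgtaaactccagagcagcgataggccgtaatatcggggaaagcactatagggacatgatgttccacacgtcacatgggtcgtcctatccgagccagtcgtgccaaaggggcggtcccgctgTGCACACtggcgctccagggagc
Mt2: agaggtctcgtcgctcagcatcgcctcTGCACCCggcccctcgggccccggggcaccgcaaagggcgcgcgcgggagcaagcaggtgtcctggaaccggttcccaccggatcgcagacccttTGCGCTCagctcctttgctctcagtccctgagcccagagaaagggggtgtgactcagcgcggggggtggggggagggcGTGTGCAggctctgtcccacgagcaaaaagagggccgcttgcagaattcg
Mt2 had 3 matches before the start and 1 more within 50 bases after it, and Mt1 had 1 before and 2 after. At least 1 match was found in 25.7% of all 32851 windows of 300 bases, 3 or more in 1.97% and 4 or more in 0.517%. The start that RefSeq gives differs from the nearest GENCODE start by 7 bases for Mt1 and by 46 bases for Mt2. No exact glucocorticoid response element and no AGAACA hexamer was in either window, and sites outside the windows or with mismatches were not searched.

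**Figure D5:**
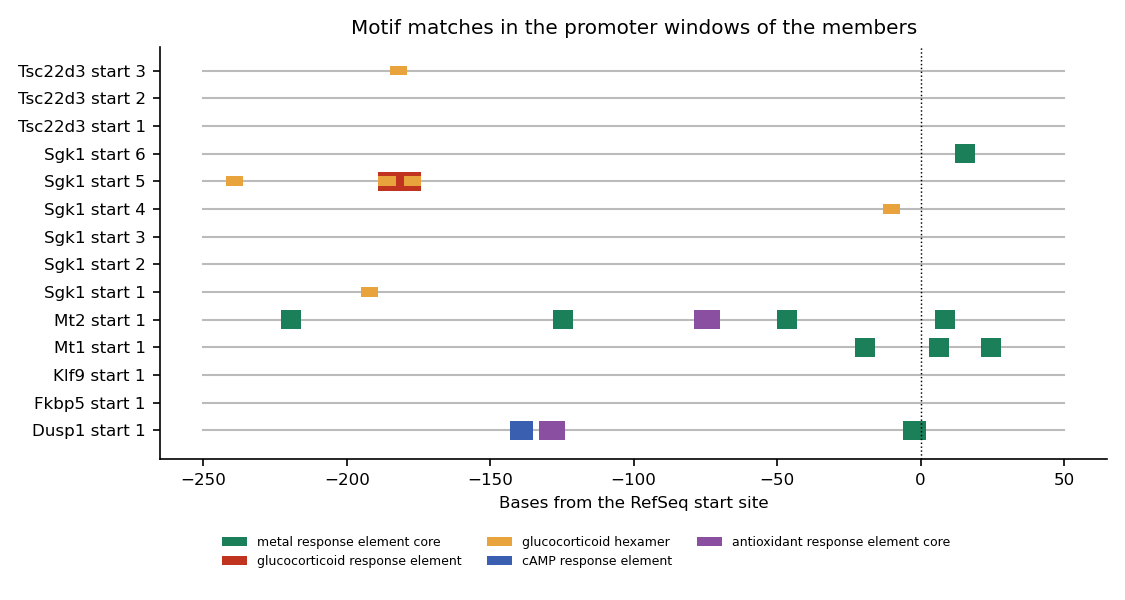
Positions of motif matches in the 14 RefSeq promoter windows of 7 of the genes, in bases from the start site, with each start of a gene on its own line and 1 colour per motif. The full glucocorticoid response element lies in 1 window of Sgk1, the cAMP response element in Dusp1, and 4 and 3 metal response element cores in Mt2 and Mt1.

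These 2 genes spread more widely than almost any others. Mt1 had 358, 3711, 723 and 1427 scaled read counts in Control mice F129, F2212, F7111 and F2110, and 1431, 548, 1745 and 2863 in Low AA mice H1126, H828, H817 and H1315. For Mt2, Control mice F2212, F7111 and F2110 had 2718, 504 and 949, and F129 was the lowest Control mouse, with F2212 at 21.1 times its value. The Low AA mice had 555, 102, 622 and 1824, in the same order as for Mt1. Both were highest in F2212 and next highest in H1315, and both were low in F129 and H828, so high and low mice occurred on each diet. Within the Low AA diet the highest value of Mt2 was 17.9 times the lowest. The SD within diets, 1.24 for Mt1 and 1.77 for Mt2 on the log2 scale, lay at the 99.7 and 99.9 percentiles of all genes. Against this spread the diet differences were 0.38 (95% interval -1.12 to 1.87, limma adjusted p = 0.887) for Mt1 and -0.35 (95% interval -2.48 to 1.79, limma adjusted p = 0.933) for Mt2. As folds, the intervals run from 0.462 to 3.66 for Mt1 and from 0.179 to 3.46 for Mt2. Without F2212 the log2 difference was 0.97 for Mt1 and 0.35 for Mt2, the opposite sign for the latter.

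Mt1 and Mt2 had r = 0.94 over the 8 mice (exact permutation p = 0.00114, adjusted 0.016) and rho = 0.905 (exact permutation p = 0.00456, adjusted 0.0639). Without the 2 mice farthest from the median of Mt1, r was 0.89, and with diet means removed it was 0.98 (exact permutation within diets, p = 0.00174, adjusted 0.0243). Of the windows of 100 bases in Mt1 transcripts, 0 occur exactly in Mt2 transcripts, and the longest exact shared run is 20 bases. How reads were assigned between the 2 genes was not tested. The ratio of Mt1 to Mt2 was not constant. It was 2.78, 1.37, 1.43 and 1.5 in Control mice F129, F2212, F7111 and F2110, and 2.58, 5.37, 2.81 and 1.57 in Low AA mice H1126, H828, H817 and H1315. It was highest in H828, the mouse with the least Mt2, and lowest in F2212, the mouse with the most. The log2 ratio was 0.76 ± 0.48 (SD, n = 4) on the Control diet and 1.48 ± 0.72 (SD, n = 4) on the Low AA diet, a difference of 0.72 that did not pass (exact permutation test, two-sided, p = 0.114).

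Zinc and acute-phase genes were compared with the metallothioneins. Of 24 metal-responsive genes and zinc transporters, 21 were in the table and 0 were called. At an unadjusted p under 0.05 there was 1, or 4.76% of the list against 11.8% of all genes. That was Slc39a4, a zinc importer, with a difference of -0.91 (limma adjusted p = 0.39). Slc30a1, the zinc exporter that shares the metal-responsive factor MTF1 with the metallothioneins, had 566, 1155, 1231 and 1158 in Control mice F129, F2212, F7111 and F2110, and 661, 566, 705 and 965 in Low AA mice H1126, H828, H817 and H1315. It too was lowest in F129 and H828, but it was highest in F7111, which had 723 for Mt1 and 504 for Mt2. The difference of Slc30a1 was -0.47 (limma adjusted p = 0.521). The mean of the 21 genes deviated from the 8-mouse mean by 0.006 in F2212 and -0.01 in H828. Over all mice that deviation ran from -0.10 to 0.16, so it did not follow the metallothioneins. Among 28 acute-phase genes, 28 were in the table and 0 were called. At an unadjusted p under 0.05 there were 2 higher and 3 lower, 17.9% together against 11.8% of all genes. With a mouse left out, 1 gene was called in each of 3 fits, Apcs, a pentraxin named after its values were seen, higher without F2212 (difference 1.34, limma adjusted p = 0.0242), Saa4 lower without F2110 (limma adjusted p = 0.0425) and Orm1 lower without H1315 (limma adjusted p = 0.0415). Their mean stood 0.93 above the 8-mouse mean in F2212 and 0.86 below it, at -0.86, in H828, the mice with the most and the least Mt2. Serpina3n, an acute-phase protease inhibitor, had the pattern most like Mt2, with r = 0.962 and rho = 0.833 over the 8 mice, followed by Tcn2 with r = 0.945. For Mt1 they were Rnf14 and Pon1, with r = 0.967 and 0.955. Orm1, an acute-phase glycoprotein, had 8111 to 16131 in Control mice and 955 to 5794 in Low AA mice, a difference of -2.06 (limma adjusted p = 0.0908). Saa4 had a difference of -1.29 (limma adjusted p = 0.0915), and Saa1 and Saa2 had -3.49 and -2.86 (limma adjusted p = 0.261 and 0.503), with F2212 at 57733 and 32724. Without F2212 the differences of Saa1 and Saa2 were -2.23 and -1.19.

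Other known targets of the receptor in liver were taken from a list of 47 genes, of which 43 were in the table. None of the 43 was called in limma. At an unadjusted p under 0.05 there were 5 higher and 1 lower, 14.0% of the list against 11.8% of all genes. The median difference was 0.20, and this positive shift leaned in part on Control mouse F2212. There the 43 genes deviated from their mean over all mice by -0.43 on average. In Control mice F129, F7111 and F2110 the deviation was -0.11, 0.02 and 0.10, and in the Low AA mice it was 0.07 to 0.17. The median difference without F2212 is not given. Cdkn1a, a cell cycle inhibitor, had 159 to 612 in Control mice and 619 to 1926 in Low AA mice, without overlap (difference 1.52, limma adjusted p = 0.196). Ddit4, an inhibitor of mTORC1, had 91 to 206 and 231 to 335, also without overlap (difference 0.72, limma adjusted p = 0.281, and 0.44 without F2212). Pdk4, which spares glucose by inhibiting pyruvate dehydrogenase, had a difference of 1.40, Igfbp1, an insulin-repressed binding protein, 1.27, and G6pc, glucose-6-phosphatase, 0.71 (limma adjusted p = 0.324, 0.416 and 0.282). The diets overlapped for these 3 genes. Gadd45a, named after its values were seen, was the gene on the lower side, at -0.72 (limma adjusted p = 0.376).

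Among targets tied to amino acid breakdown and fasting metabolism, the 5 described next overlapped between the diets. Tat, tyrosine aminotransferase, had 80666 ± 33888 (SD, n = 4) on the Control diet and 93451 ± 23385 (SD, n = 4) on the Low AA diet, a difference of 0.29 (limma adjusted p = 0.781), or 0.01 without F2212. Pck1, the cytosolic gluconeogenic carboxykinase, had -0.13 (limma adjusted p = 0.797), and Per1, a clock gene with glucocorticoid control, had 0.13 (limma adjusted p = 0.894). Cebpb, a transcription factor of the fasting response, had 0.01 (limma adjusted p = 0.996). With a mouse left out the Cebpb difference was between -0.17 and 0.12, and without F2212 it was 0.002. Angptl4, an inhibitor of lipoprotein lipase, had 0.26 (limma adjusted p = 0.466). In F2212, the mouse with the least Fkbp5 and Tsc22d3, the mean of the 43 genes was also the lowest of the 8, at -0.43 against -0.11 to 0.17 in the others. F7111, with the most Fkbp5 and Tsc22d3, was at 0.02 and so did not stand out for these targets.

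Levels of the genes were compared per kilobase of annotated exon. On the Control diet the order ran from Mt2 at 1828 ± 1948, Mt1 at 1248 ± 1207, Klf9 at 570.2 ± 230 and Tsc22d3 at 513 ± 248 to Dusp1 at 274 ± 205, Fkbp5 at 237 ± 116, Nr3c1 at 212 ± 29.1 and Sgk1 at 184 ± 58.5 scaled read counts per kilobase (SD, n = 4). On the Low AA diet Sgk1 was at 405 ± 94.2 (SD, n = 4) per kilobase, between Tsc22d3 at 493 ± 97.5 and Dusp1 at 320.4 ± 160 (SD, n = 4). Neighbours in these orders differed by less than the larger of their SDs. The order of Mt1 and Mt2 also depends on the annotation, since the exon length of Mt1, 1246 bases, was its whole gene span. For Mt2 it was 588 bases. Before division by length, Mt1 had the higher mean on the Control diet, 1555 against 1075 scaled read counts. All 8 genes lay between the 69.6 and 93.1 percentiles of expression per kilobase among 10714 genes with an exon length.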

How the data were processed

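Stranded poly(A) RNA libraries of liver were made for 8 separate mice, 4 per diet. The authors deposited 1 table with a signal for each gene and mouse, a read count scaled per mouse and rounded, beside their own fold change and FDR, which were not used. The submitters' processing notes name bcl2fastq 1.8.2, STAR 2.5.0a, RSEM 1.2.6, edgeR 3.10.5, R 3.2.1 and the build mm10, without roles. Some small whole numbers never occur or occur too often in a given mouse, a mark of scaling, so no count model was run here. The lowest maximum of any gene over the mice was 31, so the table lists no gene below that.

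Values were analysed as log2(value + 1) in limma 3.58.1 (R 4.3.3) with a mean-variance trend, Benjamini-Hochberg adjustment over all 11784 genes and a threshold of 0.05. Requiring a value of 1 or more in 4 or more mice left every gene in. The fit was tested on simulated data. Fold changes on this scale understate those of low genes. Single genes were also compared by exact permutation over the 70 assignments of mice, and correlations by exact permutation over 40320 pairings, or 576 within diets. Other pseudocounts, scalings, gene filters and moderation were tried, and each mouse was left out in turn.

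Members and lists were chosen with earlier results of these data known. Genes named are all members, the called genes of each list or otherwise those with the 2 smallest p or the 2 largest differences, 7 receptor targets (Per1, Tat, Pck1, G6pc, Igfbp1, Angptl4 and Cebpb) and the 2 genes most like each member. One gene that this rule picks is not reported here. Older symbols were matched through NCBI's gene table. Coordinates and exon lengths are from GENCODE vM21 (GRCm38, which mm10 denotes), and promoters from RefSeq on GRCm38.p6, with windows for 7 of the 8 genes and none for Nr3c1. Overlapping genes could share reads where counting did not use strand. Figures were drawn with matplotlib 3.10.9.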

Additional observations from a re-analysis of the deposited data

Results flagged for a closer look

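Within each diet, 1 mouse far from the other 3 was looked for in 16 groups of 4 mice, and 2 stood out, where chance gives about 1 in 20. Low AA mouse H817 had 2732 scaled read counts of Fkbp5 against 2112 to 2139 in the other Low AA mice, a gap of 0.951 of the group's range on the log2 scale. The same mouse was the highest Low AA mouse for Tsc22d3, at 2748. Control mouse F2110 had 1330 of Sgk1 against 720 to 796 in the other Control mice, a gap of 0.837 of the range.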

How the results depend on the processing

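No paired analysis was possible because no mouse code occurs on both diets and replicate numbers only follow the order of samples. The test on read counts planned for recovered whole reads was not run, because rounding hides them. Under other pseudocounts, scalings, moderation and the 8000 genes with the highest mean, each of the 8 genes kept the sign of its difference and its side of the threshold, and scaling moved the median of all genes by less than 0.1. For Sgk1, the exact permutation test on the difference of 1.16 gave p = 0.0286, an unadjusted value that non-overlap alone gives, the adjusted p lay between 0.0575 and 0.0926 over the alternatives with all mice, and leaving out each mouse gave differences from 1.02 to 1.36. Only without Control mouse F2110 (1.36) was it called, so that with a mouse left out the number of the 8 genes called higher ran from 0 to 1.

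With each mouse left out in turn, the differences ran from 0.03 to 0.18 for Nr3c1, from -0.12 to 0.43 for Fkbp5, from -0.18 to 0.33 for Tsc22d3, from 0.05 to 0.79 for Dusp1, from -0.14 to 0.23 for Klf9, from -0.15 to 0.97 for Mt1 and from -1.11 to 0.42 for Mt2. The sign changed once for Fkbp5, without F2212, and 3 times for Tsc22d3, without F2212 (-0.18), F2110 (-0.06) or H817 (-0.09). For Klf9 it changed without F129 (-0.14), F2212 (-0.12) or H828 (-0.02), for Mt1 without F129 (-0.15), and for Mt2 without F2212 (0.35) or H828 (0.42). Of the list genes printed with a difference, the sign changed with a mouse left out for Per1 (-0.14 to 0.32), Cebpb (-0.17 to 0.12) and Lcn2 (-1.12 to 0.12). Named genes printed without a difference, such as Nr4a1, Fos and Cela1, were not among them. The cause was not tested.

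Over all genes, 12 were called higher and 35 lower. Among the 8000 genes with the highest mean there were 5 and 14, and without the mean-variance trend 7 and 23. With a mouse left out the counts ran from 4 to 26 higher and from 12 to 51 lower, the 26 without F2212. Depth is known only approximately, since the values are scaled, so no counting interval is given.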

Other observations

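Clock genes share targets and timing with glucocorticoids. Of 19 clock genes, all 19 were in the table and 0 were called in limma, with 0 higher and 3 lower at an unadjusted p under 0.05, 15.8% of the list against 11.8% of all genes. Dbp, an output transcription factor of the clock, had 451 to 1521 in Control mice and 184 to 656 in Low AA mice (difference -1.11, limma adjusted p = 0.321), and Bhlhe41, a clock repressor, had 12 to 39 and 5 to 19 (difference -1.49, limma adjusted p = 0.241).

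Of 38 paralogs of the members and related genes, 26 were in the table and 0 were called in limma. At an unadjusted p under 0.05 there were 3 higher and 0 lower, 11.5% of the list against 11.8% of all genes. Fkbp14, a prolyl isomerase of the endoplasmic reticulum, had 206 to 242 in Control mice and 287 to 339 in Low AA mice without overlap (difference 0.47, limma adjusted p = 0.119). Lcn2, a lipocalin of the acute-phase response, had 1830 in F2212 against 82 to 391 in the other 7 mice (difference -0.68, limma adjusted p = 0.79, and 0.12 without F2212). Tsc22d1 had a difference of -0.54 (limma adjusted p = 0.514).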
